A study of Mus musculus with 45 samples.

Results

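The cytoplasmic ribosomal protein genes were followed from fully grown mouse oocytes (FGOs) to late two-cell embryos, with and without the histone mutant H3.3K36M in the oocyte. Their members were the rows of the deposited expression table whose gene symbol was Rpl or Rps followed by the usual ribosomal protein number or letter (Rpl3, Rplp0, Rpsa and so on), which gave 85 of 26214 genes. Of these, 52 encode proteins of the large subunit or its paralogs (Rpl) and 33 proteins of the small subunit or its paralogs (Rps). The symbols of mitochondrial ribosomal proteins (Mrpl, Mrps) and of rows named as pseudogenes do not match this pattern, nor do Fau, Rack1 and Rpl36al, which also encode ribosomal proteins or a ribosome-bound protein and are described apart.

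The study expressed an HA-tagged H3.3K36M, which lowers H3K36 methylation, from the H3f3b locus in growing oocytes, and RNA was sequenced from 4 groups. Control FGOs carried H3f3b K36M-flox/+ without Cre (3 libraries), and K36M FGOs carried the same allele with Gdf9-Cre, whose promoter is active in oocytes (3 libraries). Each FGO library was a pool of oocytes from females 3 to 4 weeks of age of the strain given in the labels as hybrid C57BL/6 / 129. The 2 embryo groups were single late two-cell embryos taken 31 to 32 h after in vitro fertilization of control or K36M oocytes with JF-1 sperm, 8 in each group. Because the mothers were heterozygous, an embryo of a K36M oocyte could carry the mutant allele or the wild-type allele, and the gene totals used here do not separate them. Control two-cell embryo 4, excluded by the submitters because of a technical fault, was not used in the comparisons, which left 7 control and 8 K36M oocyte-derived embryos.

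Ribosomal proteins assemble with ribosomal RNA into the large and the small subunit, and most of them are needed in equal numbers in each ribosome. Their mRNAs usually begin with a C followed by a run of pyrimidines, the terminal oligopyrimidine (TOP) motif, through which mTOR signalling and the RNA-binding protein LARP1 control how strongly they are translated and how long they last. Growing oocytes build up a large store of ribosomes and mRNAs, fully grown oocytes are largely silent in transcription, and the mouse embryo resumes transcription on a large scale at the two-cell stage.

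The values were TPM, transcript abundances scaled to gene length and to the same sum of 1000000 in each library. A TPM value is therefore a share of the measured mRNA, so that more of these mRNAs and less of the others cannot be told apart, and it does not give the number of reads behind a value. By the study's list of total reads, each FGO library was sequenced more deeply than each embryo. Of the 10 oocyte markers listed, such as Zp3 and Gdf9, each was lower in two-cell embryos than in FGOs in both genotypes at an adjusted p under 0.05. Their summed TPM was 18721 to 21277 in the 6 FGO libraries and 1287 to 4874 in the 15 embryos. Of 8 markers of the zygotic genome, such as Zscan4d and Zfp352, 7 were higher in control and 6 in K36M embryos. Markers of granulosa cells, stroma and blood summed to 77.0 to 104.6, 2.45 to 9.18 and 53.5 to 65.7 TPM in the FGO libraries, the last almost wholly from Pecam1 (mean 65.1 TPM in control FGOs).

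The listed transcription starts of the genes that mattered most to the comparisons are shown for the TOP motif, which is a property of the mRNA's first bases. RefSeq gave a start for 64 of the 85 genes, on the GRCm38.p6 assembly. Each line holds the 40 bases before and the 20 bases from the start on the strand of the gene, with the run of pyrimidines at the start in capitals where it is a C followed by at least 4 more pyrimidines. Rplp2, Rpl35 and Rps6 have such a run and Rpl41, Rpl23 and Rpl10l do not. The windows are chr7:141447611-141447670 (plus strand), chr2:39005112-39005171 (minus), chr4:86857348-86857407 (minus), chr10:128549149-128549208 (minus), chr11:97782420-97782479 (minus) and chr12:66284382-66284441 (minus), in the same order.
Rplp2: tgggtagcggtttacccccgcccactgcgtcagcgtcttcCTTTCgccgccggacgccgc
Rpl35: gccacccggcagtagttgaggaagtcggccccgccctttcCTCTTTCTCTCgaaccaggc
Rps6: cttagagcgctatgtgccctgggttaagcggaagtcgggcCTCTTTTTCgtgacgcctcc
Rpl41: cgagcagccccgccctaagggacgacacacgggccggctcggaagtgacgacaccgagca
Rpl23: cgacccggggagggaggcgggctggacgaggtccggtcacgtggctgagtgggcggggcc
Rpl10l: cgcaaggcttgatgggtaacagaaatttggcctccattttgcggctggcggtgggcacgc

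A C and at least 4 more pyrimidines at the listed start were found in 14 of the 64 genes (21.9%). The share was 3.01% of 27025 genes with a listed promoter. It was 3.10% of the 13373 of these that were expressed, with a TPM averaging 1 or more over the 21 libraries compared. Some genes have several listed starts, and a gene was counted, among the members and among all genes, if any of its starts held the letters. The listed starts are those of the annotation and were not measured in oocytes, so that a gene with no run at the listed base may still start at one nearby. The motif CCGGAAG, searched on both strands within the 250 bases before and 50 bases after the start, was found in 26 of the 64 genes (40.6%) against 9.93% of all these genes and 16.5% of the expressed ones. TATAA, searched on the strand of the gene, stood 40 to 16 bases before the start in 5 genes (7.81%) against 4.22% of all these genes. These are shares of genes whose listed promoters hold the letters.

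Most members also had much of their mRNA sequence copied elsewhere in the genome, and other genes were not searched for this. For the 84 members with an mRNA on a chromosome of the assembly, every stretch of 50 bases of the mRNA was searched in the genome outside the gene. Of these, 3 members had no stretch with an exact copy elsewhere, 28 had copies of up to 50% of their stretches and 53 of over 50%. How reads with several positions were counted is not given in the sources used here, so that the levels of members with many copies are uncertain. Over the 84 members, Spearman's rho between the copied share and the mean TPM was −0.063 in control FGOs and −0.022 in control embryos (descriptions across genes, which share the libraries).

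The family made up about 1% of the measured mRNA in FGOs and about 2% in most two-cell embryos. In control FGOs the summed TPM of the 85 genes was 1.14%, 1.17% and 1.20% of the library (mean 1.17% ± 0.0304, SD, n = 3), and in K36M FGOs 1.15%, 1.03% and 1.11% (1.10% ± 0.0570, n = 3). The 7 control embryos held 1.05%, 2.42%, 2.18%, 2.06%, 1.12%, 2.02% and 1.78% (1.81% ± 0.526) in the order of their numbers, and the 8 K36M oocyte-derived embryos between 1.76% and 2.73% (2.18% ± 0.329). The means of embryos were 1.54 times (control) and 1.99 times (K36M) those of the FGOs.

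All 8 K36M oocyte-derived embryos lay above all 3 K36M FGO libraries. Among the control embryos, 5 of 7 lay above the FGOs, and embryos 1 and 6 lay below all 3 of them. In these 2 embryos the oocyte markers summed to 4159 and 4314 TPM, against 1287 to 2293 TPM in the other 5 control embryos, and the granulosa markers to 110 and 137 TPM, against 13.3 to 40.6 TPM. Of the 12 granulosa markers, 10 averaged 1 TPM or more in each FGO group, and Ptx3 was at 0 in all 3 control FGO libraries. In embryos these were 8 of 12 in the control and 10 of 12 in the K36M group. The highest Foxl2 and Fst values were 72.5 and 67.2 TPM in control embryos, and the highest Foxl2 value in K36M embryos was 103.9 TPM. Only control embryos 1 and 6 and K36M embryo 8 had granulosa sums large enough to hold such values. Of 11 granulosa markers tested by limma, Inha, Cyp19a1 and Hsd17b1 were lower in control embryos than in control FGOs (27.3%, background 15.5%). In that comparison 0 were higher (background 15%). Control embryo 6 also had 12 of the 85 genes at 0. K36M embryo 1 had the highest oocyte marker sum of its group (4874 TPM) and a ribosomal protein share of 2.18%. K36M embryo 8 had the highest granulosa marker sum of all 15 embryos (157.6 TPM) and a share of 2.04%. The part of the markers in the low share was not tested. The embryo that the study left out had a share of 0.477%, with 10 of the 85 genes at 0 and oocyte markers at 7328 TPM.

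**Figure D1:**
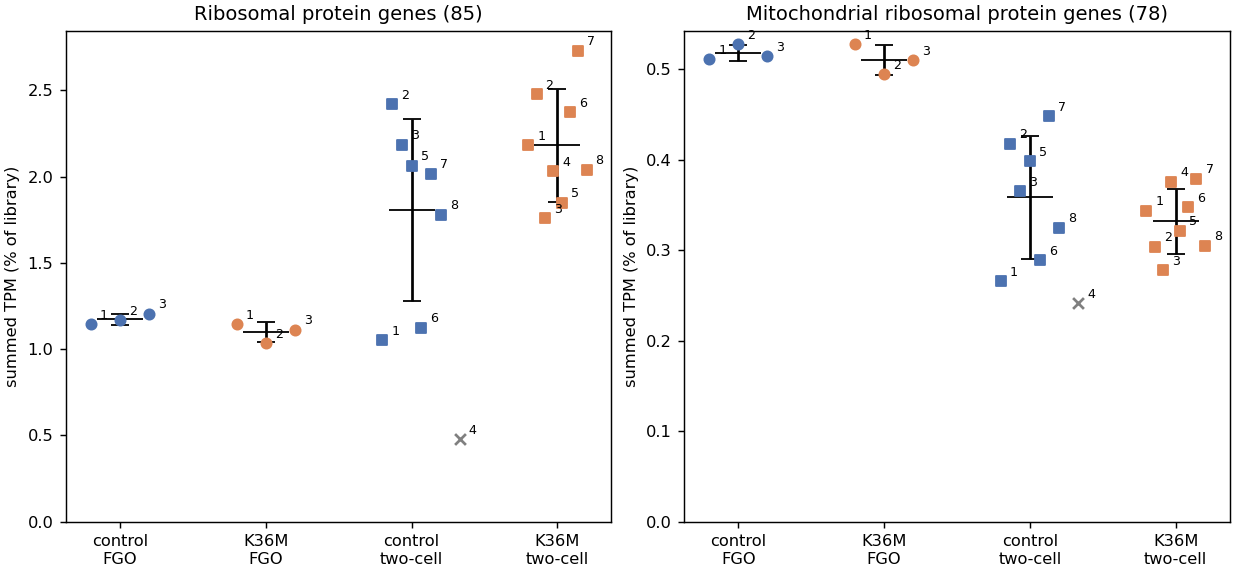
Summed TPM of the 85 cytoplasmic (left) and 78 mitochondrial (right) ribosomal protein genes as a percent of each library, with replicate numbers beside the points, group means and SD as bars, and the left-out control embryo 4 as a cross. On the left, control embryos 1 and 6 sit at the level of the FGOs near 1.1%, and the other embryos lie at 1.76% or above; on the right, every embryo lies below every FGO library.

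Both subunits had a higher mean share in embryos. The large subunit genes had 0.796% of the mRNA in control FGOs and 1.26% in control embryos, and the small subunit genes 0.376% and 0.544%. The ratio of the sums of large to small subunit genes was 2.05 to 2.16 in the 6 FGO libraries and 1.77 to 2.96 in the 15 embryos. The mitochondrial ribosomal protein genes (78 rows, named Mrpl or Mrps), which serve the ribosome inside mitochondria, had lower sums in embryos. Their sum was 4944 to 5279 TPM in the 6 FGO libraries and 2656 to 4482 TPM in the 15 embryos, so that the stages did not overlap.

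The members differed widely from each other in FGOs. Mean TPM in control FGOs ran from 1.87 (Rpl9) to 915 (Rplp2) among the 84 genes with a value above 0, with a median of 68.6 over the 85 genes against 1.44 over all genes of the table. The highest members included Rplp2, Rplp1, Rpl35, Rpl4, Rps26, Rpl37 and Rpl26, and the 5 highest held 29.8% of the family's TPM. Rplp1 and Rplp2 encode the acidic proteins of the P stalk, which binds the translation factors, and ribosomes carry more copies of them than of other proteins. Rplp2 was at 930, 909 and 906 TPM and Rplp1 at 739, 868 and 787 TPM in control FGOs. Rpl35, a protein at the mouth of the exit tunnel, followed with 683, 798 and 732 TPM. Rplp1 and Rpl35 overlapped in these libraries and their order is not beyond their spread.

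The 8 lowest above a mean TPM of 1 were Rpl9, Rps27, Rpl32l, Rpl27a, Rpl37a, Rps15a, Rps20 and Rpl30. Rpl9 had 2.21, 2.32 and 1.08 TPM in control FGOs, and Rps27 3.44, 2.19 and 5.87 TPM, although both encode core proteins. Of their mRNA stretches, 96.9% (Rpl9) and 100% (Rps27) had an exact copy elsewhere in the genome. A retrogene row next to Rps27 in sequence, Rps27rt, had 5.73, 3.66 and 9.78 TPM in the same libraries. Rps20 had copies of 10.9% of its stretches and 19.2 TPM, and Rpl35 of 91.8% and 738 TPM. The part of copied sequence in these levels was not tested. Rpl3l, whose product replaces Rpl3 in heart and skeletal muscle, was the only member listed at 0 in all 6 FGO libraries.

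**Figure D2:**
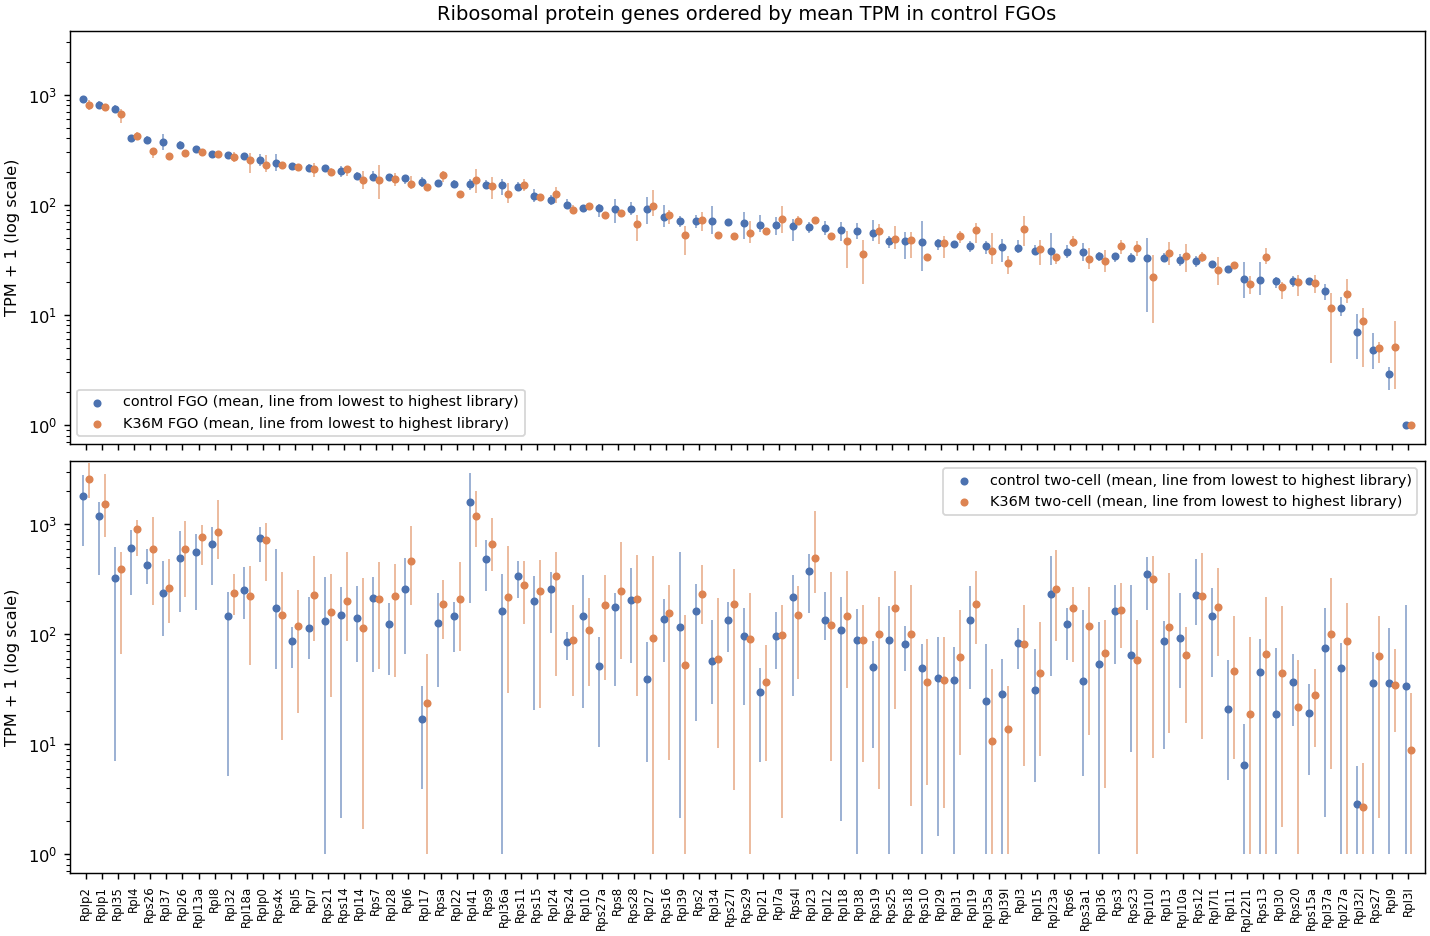
Mean TPM + 1 (log axis) of 83 of the 85 genes, ordered by control FGOs, in FGO libraries (top) and two-cell embryos (bottom), with lines from the lowest to the highest library; points at 1 are listed at 0. In FGOs the lines are short and both genotypes follow the same order, and in embryos the lines are long and the order is only partly kept.

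The levels were tight in FGOs and loose in embryos. Among members averaging 10 TPM or more, the median coefficient of variation was 12.0% in control and 15.0% in K36M FGOs, and 55.8% and 65.9% in the embryos of control and K36M oocytes. Of 595 values in control embryos 22 were at 0, as were 25 of 680 in K36M embryos, on 17 and 13 of the genes. FGO libraries were pools and more deeply sequenced and embryos were single, so that the spread within the 2 stages is not of the same kind, and stage, pooling and depth cannot be told apart in the zeros and the spread. Across the 85 genes, mean log2 levels in control and K36M FGOs had a Pearson correlation of 0.989, those of the 2 embryo groups 0.937, and those of control FGOs and control embryos 0.696 (descriptions).

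The first question was whether the family changed when oocytes expressed H3.3K36M, and no member passed the test in FGOs. Of 84 members tested with limma, 0 were called at an adjusted p under 0.05, where 1 of 13775 genes was called (0.00726%). At an unadjusted p under 0.05 there were 3 members higher (background 5.15%) and 7 lower (background 5.34%) in K36M FGOs. The groups did not overlap for 1 member that was higher (background 7.46%) and 8 that were lower (background 8.17%), of the 84 tested. The median log2 fold change was −0.056 over the members and 0.013 over all genes. Without K36M FGO library 1, 191 genes were called higher (1.38%) and 109 lower (0.790%) of 13799, still with 0 members among them. The members with an unadjusted p under 0.05 were then 7 higher (8.33%, background 11.9%) and 12 lower (14.3%, background 8.48%), and their smallest adjusted p was 0.0587, against 0.353 with all 6 libraries. Leaving out each of the other 5 libraries gave 0 to 2 higher (up to 2.38%, all genes 2.59% to 3.70%). It gave 5 to 10 lower (5.95% to 11.9%, all genes 3.38% to 4.74%).

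The 5 members with the smallest p were all lower in K36M FGOs, and none passed. Rps27l, the paralog of Rps27, had 72.8, 70.5 and 62.5 TPM in control and 46.5, 54.2 and 50.6 TPM in K36M FGOs. All 3 K36M values lay below all 3 control values, with a log2 difference of −0.44 ± 0.12 (SE) and an adjusted p of 0.353. Rpl37 had 363, 311 and 435 TPM in control and 292, 252 and 283 TPM in K36M FGOs (log2 difference −0.41 ± 0.12, adjusted p 0.383). Rps26, which contacts the mRNA near the exit site of the small subunit, had 377, 369 and 418 TPM against 328, 329 and 266 TPM (−0.34 ± 0.10, adjusted p 0.383). Rpl22 and Rpl26 differed by −0.29 ± 0.09 and −0.24 ± 0.08 (adjusted p 0.396 for both). The groups did not overlap in any of these 5 genes.

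In two-cell embryos no member differed between embryos of K36M and control oocytes in the test. Of 85 members 0 were called, as were 0 of all 17362 genes (0%). At an unadjusted p under 0.05, 7 members were higher in K36M embryos, which is 8.24% of the members against a background of 1.2%, and 0 were lower (background 6.5%). Without K36M embryo 7 there were 4 higher (4.71%, all genes 1.14%) and 2 lower (2.35%, all genes 7.06%). Leaving out each of the other embryos gave 5 to 9 higher (5.88% to 10.6%, all genes 1.03% to 1.61%). It gave 0 or 1 lower (up to 1.18%, all genes 4.69% to 7.53%). The members higher were 3 with no mean-variance trend (3.53%, all genes 0.829%), 4 with library weights (4.71%, all genes 1.30%), 4 with no filter on low values (4.71%, all genes 0.942%) and 11 with median-of-ratios scaling (12.9%, all genes 1.76%). The groups overlapped for every member (background of genes without overlap 0.115%). The median log2 fold change was 0.25 over the members and −0.26 over all genes. Without control embryo 6 the members' median was −0.04. In that fit 5.88% of the members were higher at an unadjusted p under 0.05 (all genes 1.03%) and 0 were lower (all genes 7.42%).

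Rps27a, which encodes a small subunit protein fused to ubiquitin, had the smallest p. Its lowest, median and highest TPM were 8.40, 37.1 and 93.2 in control and 37.1, 178 and 348 in K36M embryos, a log2 difference of 1.72 ± 0.54 with an adjusted p of 0.521. Rps3a1, a protein of the small subunit's platform side, had 4.18, 13.8 and 164 TPM in control and 11.1, 114 and 266 TPM in K36M embryos (2.14 ± 0.76, adjusted p 0.562). Both genes had control embryos within the range of the K36M embryos. Rpl4, an early-assembling protein that lines the exit tunnel, had 224, 673 and 881 TPM against 516, 966 and 1079 TPM (0.69 ± 0.26, adjusted p 0.567). Rpl7 and Rplp2 followed with log2 differences of 0.96 ± 0.39 (adjusted p 0.578) and 0.54 ± 0.25 (adjusted p 0.609).

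Whether the genotype difference changed from FGO to embryo was tested as an interaction, and 0 of 85 members and 0 of 17358 genes (0%) were called. At an unadjusted p under 0.05 there were 1 member with a positive interaction (background 0.207%) and 0 with a negative one (background 0.939%). Leaving out 1 library gave 0 to 2 positive (up to 2.35%, all genes 0.126% to 0.312%) and 0 negative (all genes 0.391% to 1.51%). Library weights gave 5 positive (5.88%, all genes 1.62%), and 1.18% of the members were negative (all genes 8.64%). With all libraries the 1 member was Rps27a, with an interaction of 1.92 ± 0.93 on the log2 scale and an adjusted p of 1.00. Rps3a1 (2.37 ± 1.33), Rplp2 (0.72 ± 0.43), Rpl7 (1.00 ± 0.64) and Rpl6 (1.00 ± 0.65) were next, each with an adjusted p of 1.00. The genotype comparisons and the interaction share their libraries, and their values for these genes are not independent.

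The second question was how the family moved between the stages, and here a subset rose and most members did not pass the test. The embryos also came from superovulated females, and their libraries had more amplification cycles. Stage cannot be told apart from these, nor from pooling, sequencing depth or the JF-1 sperm. Rises and falls are therefore differences between embryo and FGO libraries, and their cause was not tested. In control libraries 15 of 85 members were higher in two-cell embryos than in FGOs (17.6%, background 15%) and 2 were lower (2.35%, background 15.5%). In K36M libraries 18 of 85 were higher (21.2%, background 9.86%) and 1 was lower (1.18%, background 15.4%). With all libraries, the share that rose was near the background in control libraries and above it in K36M libraries, and the share that fell was below the background in both.

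The share that rose in control libraries moved with the libraries used. Without control embryo 6, 24 members were higher (28.2%, with 3020 of all 16762 genes, or 18.02%, in the same fit) and 5 lower (5.88%, all genes 17.6%). With the left-out embryo added, 6 were higher (7.06%, all genes 11.2%) and 1 lower (1.18%, all genes 12.5%). Weighting each library by its quality, which lowers the weight of libraries that stray from their group, gave 33 higher (38.8%, all genes 27.5%) and 10 lower (11.8%, all genes 28.0%) in control libraries. The share of members that rose in control libraries was therefore above that of all genes in the first and the third of these fits and below it in the second. In K36M libraries, weighting gave 34 of 85 higher (all genes 19.5%) and 7 lower (8.24%, all genes 29.8%). Without K36M FGO library 2 there were 11 higher (12.9%, all genes 6.73%) and 0 lower (all genes 7.47%).

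The groups did not overlap for 12 members that were higher (background 14.5%) and 5 that were lower (background 18.2%) in control embryos, and for 16 higher (background 9.41%) and 2 lower (background 16.9%) in K36M embryos. Log2 fold changes were above 0 for 46 of 85 members in control (54.1%, background 51.7%) and 54 of 85 in K36M libraries (63.5%, background 47.1%). The median log2 fold change of the members was 0.10 in control and 0.36 in K36M libraries, against 0.08 and −0.16 over all genes. Median-of-ratios scaling moved the median of all genes to −0.10 and −0.28, and with it the members' medians to −0.13 and 0.21, so the control median has no stable sign. Under this scaling 11 members were higher (12.9%, all genes 13.1%) and 4 lower (4.71%, all genes 19.2%) in control libraries. In K36M libraries it gave 17 of 85 higher (all genes 9.07%) and 2 lower (2.35%, all genes 18.2%).

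The 2 stage comparisons share no library, and the genes called in both were counted among the members and among all genes. Of the 17 members called in control and the 19 called in K36M libraries, 11 were called in both, each in the same direction (64.7% of the first and 57.9% of the second). Of all 15048 genes tested in both comparisons, 3181 were called in both, which is 62.6% of those called in control and 75.8% of those called in K36M libraries. These were Rplp0, Rpl8, Rpl10l, Rpl17, Rpl23, Rpl23a, Rpl41, Rpl7l1, Rps3, Rps6 and Rps9, of which only Rpl17 fell. Across all 85 members, 67 (78.8%) had the same sign in both comparisons, against 87.8% of all genes. Pearson's r between the 2 sets of fold changes was 0.85 and Spearman's rho 0.81 over the members, against 0.92 and 0.91 over all genes (descriptions across genes, which are not independent).

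**Figure D3:**
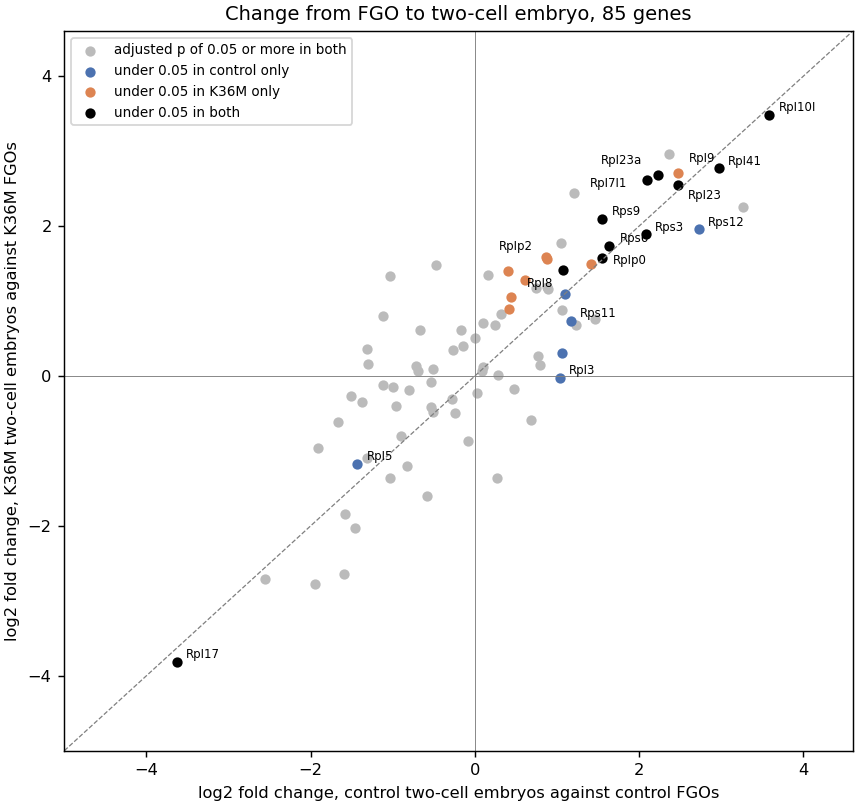
Log2 fold change from FGO to two-cell embryo of each of the 85 genes in control (x axis) and K36M libraries (y axis), coloured by which comparison passed an adjusted p under 0.05; the dashed line marks equal change. Rpl17 lies alone at the lower left with −3.63 and −3.81, and Rpl10l, Rpl41 and Rpl23 lie at the upper right.

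The P stalk, with Rplp0 as its base, Rplp1 and Rplp2 as its arms and Rpl12 beside it, rose in both genotypes by its base and in each genotype by other members. Rplp0 had 238, 226 and 291 TPM in control FGOs and 457, 830 and 946 TPM (lowest, median, highest) in control embryos. All embryos lay above all FGOs. K36M FGOs had 210, 198 and 282 TPM and K36M embryos 302, 758 and 1022 TPM, again apart. Rplp0 passed the test in both genotypes. In K36M libraries Rplp2 rose from 813, 898 and 721 TPM to 1712, 2250 and 3626 TPM, without overlap. In control embryos Rplp2 had 629, 1785 and 2781 TPM, with embryo 1 below the FGOs, and did not pass. Rplp1 passed in K36M libraries (771 to 1517 TPM in the mean) and Rpl12 in control libraries (60.6 to 134 TPM). The P stalk thus had 2 of 4 genes higher in control and 3 of 4 in K36M libraries, where 15% and 9.86% of all genes were higher.

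Rpl41, the smallest ribosomal protein, which bridges the subunits, rose in both genotypes. It had 155, 169 and 136 TPM in control FGOs and 192, 1955 and 2939 TPM (lowest, median, highest) in control embryos, a log2 fold change of 2.98 ± 0.65 (adjusted p 0.00393). K36M libraries went from 211, 126 and 158 TPM to 618, 996 and 2005 TPM (2.77 ± 0.31, adjusted p 2.08e-05). No embryo overlapped with the FGOs of its genotype. With control embryo 4 added, where Rpl41 had 16.8 TPM, the control change was 2.22 and did not pass (adjusted p 0.202). It ranked with Rplp2 and Rplp1 as the 3 highest members in both embryo groups, and 80.8% of its mRNA stretches had a copy elsewhere.

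Rpl23, at the face toward the small subunit, rose from 54.5, 62.4 and 68.7 TPM to 155, 398 and 531 TPM in control libraries (2.48 ± 0.35, adjusted p 0.000197). K36M libraries rose from 75.8, 71.0 and 68.4 TPM to 233, 399 and 1316 TPM (2.55 ± 0.41, adjusted p 0.000499). Every embryo exceeded every FGO library. Rpl9 had 11.9, 22.4 and 72.5 TPM in K36M embryos, above the 3.29, 1.14 and 7.76 TPM of K36M FGOs (2.71 ± 0.73, adjusted p 0.0145), and the call was lost without K36M FGO library 1 (adjusted p 0.0626) or 2 (0.102). In control embryos Rpl9 had 0, 28.0 and 113 TPM and did not pass.

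The genes around the exit tunnel, through which the new protein leaves the ribosome, numbered 8 in the list. Of these, 1 was higher (12.5%, background 15%) and 1 lower (12.5%, background 15.5%) in control libraries, and 3 were higher (37.5%, background 9.86%) and 1 lower (12.5%, background 15.4%) in K36M libraries. Rpl17, at the rim of the tunnel, was the member with the largest fall. It had 162, 144 and 177 TPM in control FGOs and 2.91, 15.5 and 32.9 TPM in control embryos, and 152, 146 and 136 TPM and 0, 10.7 and 65.5 TPM in the K36M groups. The stages did not overlap in either genotype. The log2 fold changes were −3.63 ± 0.68 (adjusted p 0.00150) and −3.81 ± 1.19 (adjusted p 0.0301). The second call was lost when any 1 of the 3 K36M FGO libraries was left out (adjusted p 0.105 to 0.114), and also with a pseudocount of 0.1 (0.0751) or no filter on low values (0.0506). Of the mRNA stretches of Rpl17, 85.4% had a copy elsewhere, with a median of 8 copies.

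Rpl23a, which docks targeting factors at the tunnel's mouth, went from 27.2, 54.9 and 28.3 TPM to 41.0, 219 and 508 TPM in control libraries (2.24 ± 0.69, adjusted p 0.0271). One embryo, at 41.0 TPM, lay within the FGO range. Without control FGO library 1, 2 or 3, or without control embryo 3, the call was lost (adjusted p over 0.05, up to 0.111), and it was also lost with no filter on low values (0.0527) and with no mean-variance trend (0.0520). In K36M libraries it rose from 33.8, 28.0 and 35.0 TPM to 85.1, 218 and 583 TPM without overlap (2.69 ± 0.52, adjusted p 0.00171). That call was lost with the replicate number in the fit (adjusted p 0.161). Rpl4 and Rpl19 were higher in K36M libraries, from means of 424 and 57.8 TPM to 903 and 188 TPM. Rpl35, the third highest gene in FGOs, went the other way in its mean without passing, from 738 to 322 TPM in control and from 673 to 394 TPM in K36M libraries.

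Rpl5 and Rpl11, which carry the 5S ribosomal RNA into the large subunit and can bind MDM2 when ribosome assembly fails, were unlike each other in level. Rpl5 was lower in control embryos, with 211, 235 and 229 TPM in FGOs and 48.4, 96.4 and 115 TPM in embryos, without overlap. In K36M libraries Rpl5 had 217, 225 and 213 TPM in FGOs and 18.3, 108 and 251 TPM in embryos, and it did not pass. Rpl11 had mean levels of 25.1 TPM in control and 27.1 TPM in K36M FGOs, and medians of 13.5 and 34.6 TPM in the embryos, and passed in neither genotype.

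On the small subunit, 5 of 33 genes were higher in control (15.2%, background 15%) and 4 of 33 in K36M libraries (12.1%, background 9.86%), both shares near the background, and 0 were lower in either (background 15.5% and 15.4%). At an unadjusted p under 0.05 limma had 9 higher in control (27.3%, background 19.4%) and 6 in K36M libraries (18.2%, background 13.4%), and 0 lower in either (background 21.7% and 23.2%). Rps3, a protein of the mRNA entry channel, rose from 29.3, 33.7 and 35.8 TPM to 52.8, 147 and 279 TPM in control libraries (2.09 ± 0.47, adjusted p 0.00470). The K36M values were 34.4, 41.5 and 46.3 TPM in FGOs and 74.4, 156 and 291 TPM in embryos (1.89 ± 0.41, adjusted p 0.00390). The stages did not overlap in either genotype, and 3.50% of its mRNA stretches had a copy elsewhere. With control embryo 4 added, where Rps3 had 1.20 TPM, the control call was lost (log2 fold change 1.33, adjusted p 0.425). Of the 4 entry channel and decoding genes listed, 1 (Rps3) was higher in control and 2 (Rps3 and Rps2) in K36M libraries, where 15% and 9.86% of all genes were higher.

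Rps6, the substrate of the S6 kinases and a readout of mTOR activity at the protein level, had 34.5, 31.9 and 42.4 TPM in control FGOs and 57.5, 117 and 173 TPM in control embryos (1.63 ± 0.39, adjusted p 0.00685). In K36M libraries it had 40.5, 51.3 and 41.8 TPM in FGOs and 54.5, 167 and 270 TPM in embryos (1.73 ± 0.50, adjusted p 0.0204). Every embryo lay above every FGO library of its genotype. The K36M call was lost without any 1 of the K36M FGO libraries (adjusted p 0.0634 to 0.0885), and the control call with control embryo 4 added (0.0758). Rps9, near the mRNA entry and needed for early assembly, rose from 168, 140 and 147 TPM to 248, 504 and 710 TPM in control (1.55 ± 0.32, adjusted p 0.00304). The rise in K36M libraries was from 177, 112 and 156 TPM to 374, 616 and 1145 TPM (2.10 ± 0.29, adjusted p 0.000134), and neither genotype showed overlap. With the replicate number in the fit, the control calls of Rps9 and Rps6 were lost (adjusted p 0.0579 and 0.0575). So was the K36M call of Rps6 (0.151).

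Of the 5 genes of the head and beak of the small subunit, only Rps12 passed, and only in control libraries, where it rose from a mean of 29.9 TPM, with 33.0 TPM as the highest FGO value, to 121, 209 and 484 TPM (lowest, median, highest) (2.73 ± 0.38, adjusted p 0.000178). This is 1 of 5 genes higher in control (background 15%) and 0 of 5 in K36M libraries (background 9.86%). In K36M embryos its range was 10.1 to 543 TPM with a median of 225 TPM, which overlapped with the 32.1, 36.2 and 29.4 TPM of K36M FGOs. Of its mRNA stretches 98.1% had a copy elsewhere, and 23 rows of the annotation are named as its pseudogenes. The difference between the genotypes in this change is the interaction above, in which no member passed.

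**Figure D4:**
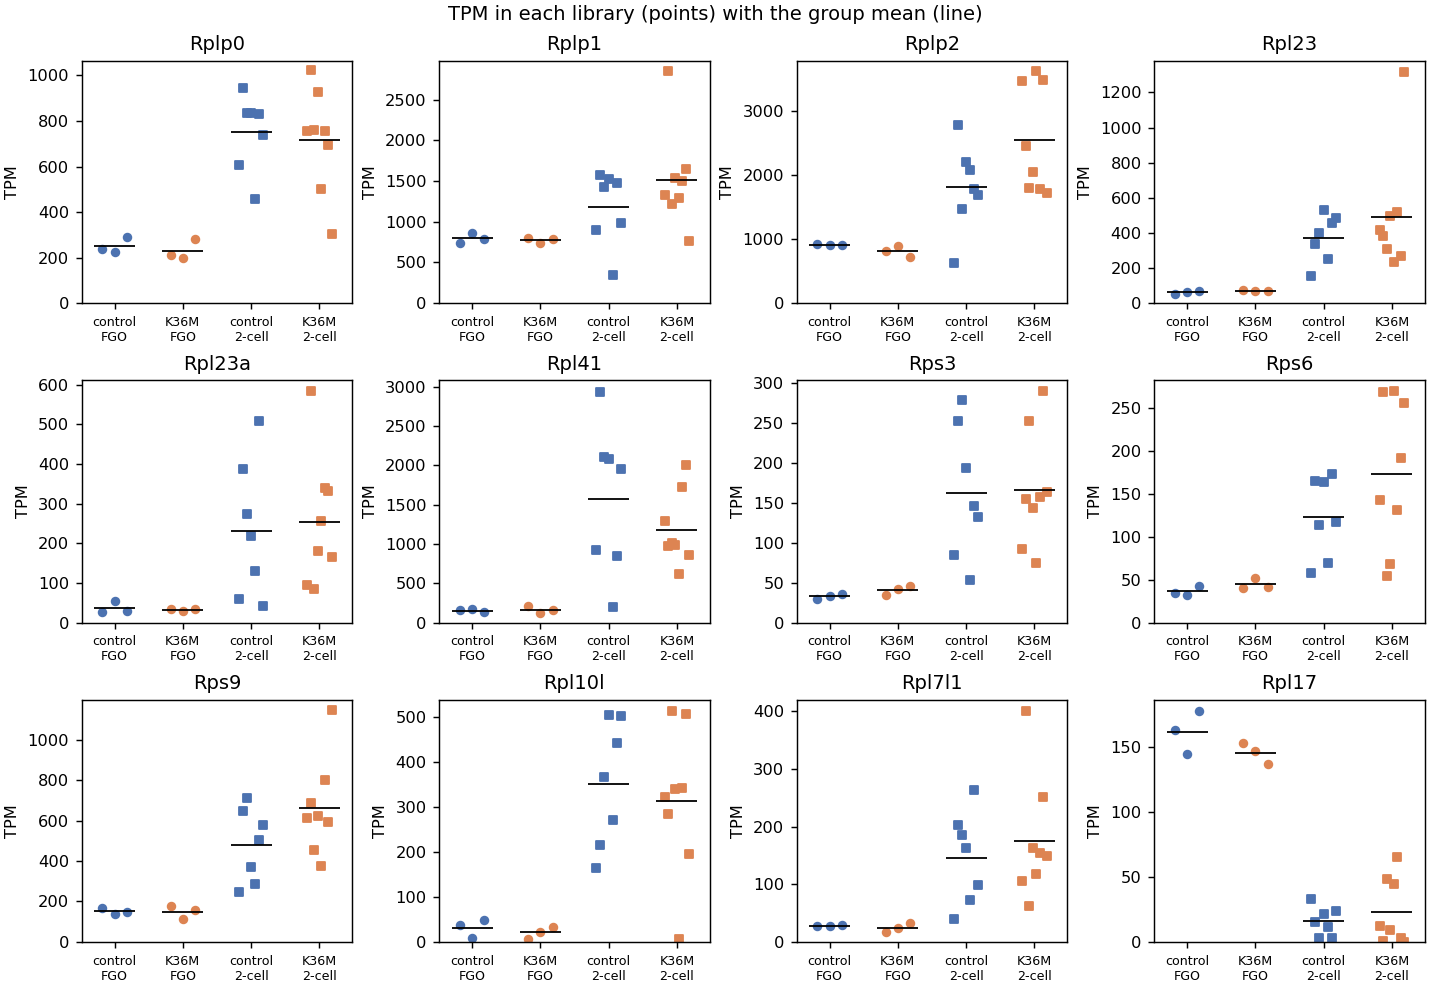
TPM in each library (points) and group means (lines) for 12 genes of the P stalk, the large and small subunits and the paralogs, on linear axes that start at 0. Rplp0, Rpl23, Rpl41, Rps3, Rps6 and Rps9 show every embryo above the FGOs of its genotype, and Rpl17 shows every embryo below.

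Paralogs were the third group, since some ribosomal protein genes have a copy used in particular tissues. Of the 7 listed, Rpl10l and Rpl7l1 were higher in embryos in both genotypes and the other 5 did not pass in either, which is 28.6% of the list in each genotype (background 15% in control and 9.86% in K36M libraries). Rpl10l is a gene with 1 exon on chromosome 12 (66283379 to 66284401, minus strand), a retrotransposed copy of the X-linked Rpl10 that is known for its use in male meiosis. It had 36.6, 9.70 and 48.7 TPM in control FGOs and 164, 365 and 503 TPM in control embryos, with no overlap (3.59 ± 0.48, adjusted p 0.000128). K36M FGOs had 7.43, 21.9 and 34.2 TPM and K36M embryos 6.55, 331 and 512 TPM (3.49 ± 1.03, adjusted p 0.0226). K36M embryo 5, at 6.55 TPM, lay below the FGOs and the other 7 lay between 195 and 512 TPM. The K36M call was lost without K36M FGO library 1 (adjusted p 0.136) or 2 (0.0752).

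The parent gene Rpl10 had 85.5, 98.7 and 91.5 TPM in control FGOs and 20.2, 136 and 344 TPM in control embryos, so that the copy was below the parent in every FGO library. The log2 difference of Rpl10l from Rpl10 was −1.77 ± 1.26 (SD, n = 3) in control FGOs and 1.53 ± 1.02 (n = 7) in control embryos, a shift of 3.30 without overlap. The exact two-sided permutation p was 0.0167, the smallest that 3 against 7 libraries can give, and 0.156 after adjustment over the 28 pair comparisons made. In K36M libraries the shift was 3.47 (exact permutation p 0.0364, adjusted p 0.255). Of the mRNA stretches of Rpl10l, 26.3% had a copy elsewhere.

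Rpl7l1, a paralog of Rpl7 that works in ribosome assembly, had 28.1, 27.5 and 28.9 TPM in control FGOs and 39.6, 162 and 263 TPM in control embryos (2.10 ± 0.51, adjusted p 0.00780). K36M libraries went from 17.6, 24.4 and 32.2 TPM to 62.7, 152 and 400.5 TPM (2.62 ± 0.48, adjusted p 0.00132), with no overlap in either genotype. With control embryo 4 added, the control change was 1.60 and did not pass (adjusted p 0.197). With the replicate number in the fit, the call was lost in control (0.0725) and in K36M libraries (0.124). Rpl7 had mean levels of 217 and 112 TPM in the control groups and 212 and 226 TPM in the K36M groups. The log2 difference of Rpl7l1 from Rpl7 moved from −2.90 ± 0.07 to 0.33 ± 1.06 in control libraries, a shift of 3.23 (exact permutation p 0.0167, adjusted p 0.156). In K36M libraries it moved from −3.08 ± 0.41 to −0.34 ± 0.58, a shift of 2.74 (exact permutation p 0.0121, the smallest that 3 against 8 can give, adjusted p 0.156). No pair passed after adjustment.

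The other paralogs were measured with wide spreads in embryos. Rps27l exceeded Rps27 in FGOs (mean 68.6 and 3.83 TPM in control), and Rps4l, an autosomal copy of the X-linked Rps4x, lay below Rps4x there (63.6 and 236 TPM). Rpl22l1 had 13.2, 18.6 and 29.1 TPM in control FGOs and was at 0 in 3 of 7 control and 6 of 8 K36M embryos. Rpl39l, like Rpl10l known from male germ cells, had 40.2 TPM in control FGOs and 27.4 TPM in control embryos in the mean. Rpl3l was listed at 0 in the FGOs and had 0, 9.25 and 182 TPM (lowest, median, highest) in control and 0, 6.03 and 28.1 TPM in K36M embryos. Between K36M and control libraries of the same stage, the exact permutation p was at least 0.148 for all 7 pairs, where 3 against 3 FGO libraries cannot go below 0.10.

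The members with and without a pyrimidine run at the listed start were also compared in the stage changes. Of the 14 members with a run, 1 was higher in control (7.14%, background 15%) and 2 in K36M libraries (14.3%, background 9.86%), with median log2 fold changes of −0.62 and −0.16. Of the 50 members with a listed start and no run there, 10 and 13 were higher, with medians of 0.36 and 0.77. A C and at least 4 more pyrimidines lay somewhere between 10 bases before and 25 bases after the listed start in 45 of the 64 genes (70.3%, against 43.8% of all genes with a listed promoter), so that many of the genes without a run at the listed base have one nearby. Rps6 was called in both genotypes and Rplp2 in K36M libraries, and Rpl35, with the run of 11 bases printed above, did not pass in either. These are descriptions of 14 and 50 genes, not a test.

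Among 14 other mRNAs known to begin with a TOP motif, 4 were higher in control (28.6%, background 15%) and 5 in K36M embryos (35.7%, background 9.86%), and 0 were lower in either by limma (background 15.5% and 15.4%). At an unadjusted p under 0.05, 5 were higher (35.7%, background 19.4%) and 1 lower (7.14%, background 21.7%) in control embryos, and 6 were higher (42.9%, background 13.4%) and 2 lower (14.3%, background 23.2%) in K36M embryos. Pabpc1, which encodes the poly(A)-binding protein, had a mean of 72.1 TPM in control FGOs and 1038 TPM in control embryos, and 82.3 and 1202 TPM in the K36M groups. Eef1a1, a translation elongation factor, had 499 and 339 TPM in the control groups and passed in neither genotype. Of 12 genes of mTOR and LARP1 control, Larp1, Larp4 and Rps6kb1 were higher in embryos in both genotypes, 3 of 12 in each (background 15% in control and 9.86% in K36M libraries). Rheb, an activator of mTOR, was the 1 gene of these that was lower in K36M libraries (95.2 to 17.5 TPM, background 15.4%). Larp1 itself went from 23.8 to 183 TPM in control and from 29.3 to 159 TPM in K36M libraries. Of the genes outside the symbol pattern, Fau passed in K36M libraries (231 to 431 TPM) but not in control libraries (235 to 267 TPM), and in the interaction its adjusted p was 1.00. Rack1 and Rpl36al passed in neither.

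Most of the mitochondrial ribosomal protein genes did not pass the test between stages, and most of those that passed were lower in embryos. Of 78 tested, 3 were higher (3.85%, background 15%) and 23 lower (29.5%, background 15.5%) in control embryos, and 52 did not pass. In K36M embryos 3 were higher (3.85%, background 9.86%), 24 were lower (30.8%, background 15.4%) and 51 did not pass. Their median log2 fold changes were −1.47 and −2.12, where the cytoplasmic members had 0.10 and 0.36 and all genes 0.08 and −0.16. Between K36M and control libraries of the same stage, 0 of these genes were called by limma. At an unadjusted p under 0.05, 5 were higher (6.41%, background 5.15%) and 7 lower (8.97%, background 5.34%) in FGOs, and 0 were higher (background 1.2%) and 9 lower (11.7% of 77 tested, background 6.5%) in embryos.

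**Figure D5:**
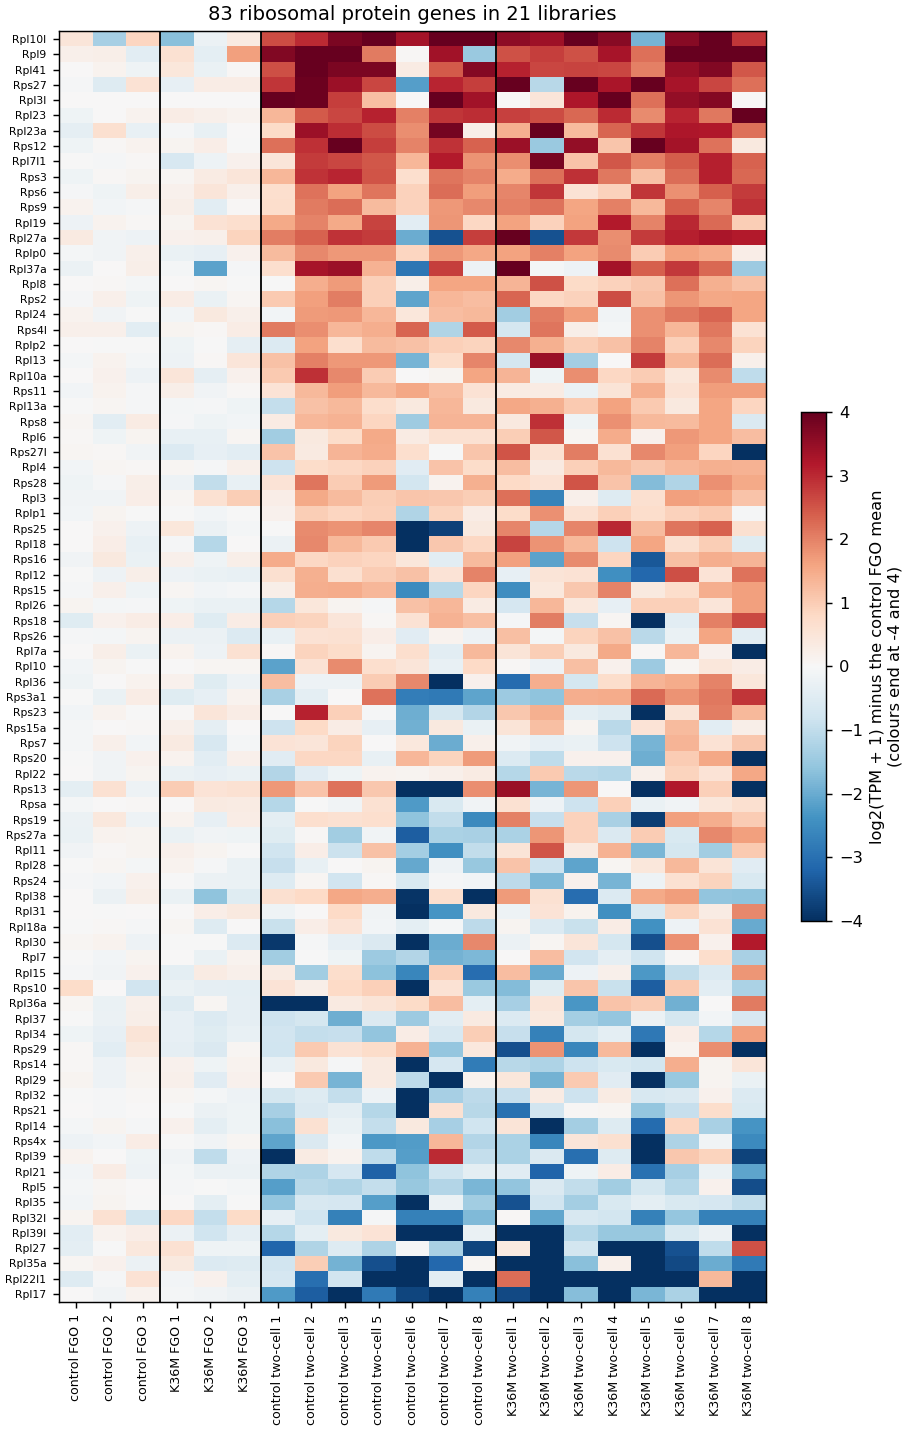
Log2(TPM + 1) of 83 of the 85 genes in the 21 libraries, relative to the mean of control FGOs, with genes ordered by their mean difference over the embryos and colours ending at −4 and 4. The FGO columns are nearly blank, the upper rows are red in most embryos, the lower rows blue, and single dark blue cells in the middle mark genes listed at or near 0 in 1 embryo.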

How the data were processed

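RNA-seq of FGO pools and single late two-cell embryos was used. The authors mapped reads to mm10 with HISAT2, removed ribosomal RNA reads with BEDTools, counted genes with featureCounts and deposited TPM values for 22 libraries, of which 21 were compared. The gene annotation, strand setting and treatment of reads with several positions are not given in the sources used here. TPM does not keep the depth, so counts were not tested and no counting interval is given.

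Tests used limma (version 3.58.1, under R 4.3.3, with a mean-variance trend) on log2(TPM + 1), over genes averaging 1 TPM or more across the compared libraries, with Benjamini-Hochberg adjustment over all genes tested and a threshold of 0.05. Fold changes are on this scale and understate those of low genes. Paralog differences were compared by exact two-sided permutation. Both were tested on simulated data. Samples were grouped by their labels. Embryos are single, and nothing in the sources used here says which FGO pools or embryos share females or fertilizations. The p-values therefore measure the spread between libraries. Sequences came from RefSeq on GRCm38.p6.

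The members and lists were chosen with earlier results of these data known. Named were the 8 highest and 8 lowest members in control FGOs, members at 0, the 10 largest called changes per stage comparison, the 5 smallest p in the genotype comparisons and the interaction, paralogs with their partners, and members of the functional groups. Some genes that this rule selects are not reported here by name, and 83 of the 85 genes are drawn where a plot names each gene. Tables and permutations were computed in Python 3.11.15 (pandas 2.3.3, numpy 2.4.6, scipy 1.17.1), and matplotlib 3.10.9 drew the figures. Alternatives were other pseudocounts, filters, scalings and weights, a replicate block and each library left out.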

Additional observations from a re-analysis of the deposited data

Results flagged for a closer look

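Within the 2 embryo groups, 15 of 88 sets of values (4 summed shares or ratios and 40 named genes in each group) held a value far from the others of its group by Dixon's criterion, where chance gives about 1 in 20, or 4.4 sets. Values are log2(TPM + 1).

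Control embryo 6 was far below the other control embryos for Rplp1 (8.44, others 9.81 to 10.62), Rpl35 (2.83, others 7.32 to 9.29), Rps27 (0, others 4.87 to 6.12) and Rps27a (3.23, others 5.14 to 6.56). Control embryo 1 was far below for Rplp2 (9.30, others 10.53 to 11.44), Rpl6 (6.05, others 7.77 to 8.94) and Rpl3 (5.59, others 6.30 to 6.84). These are the 2 embryos with the low summed share. Control embryo 7 was low for Rps4l (4.77, others 7.31 to 8.44).

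Among K36M oocyte-derived embryos, embryo 2 was low for Rpl4 (9.01, others 9.62 to 10.08), Rps27 (1.10, others 4.41 to 7.18) and Rpl27a (0, others 5.36 to 7.58). Embryo 1 was low for Rpl35 (6.05, others 8.18 to 9.12), embryo 5 for Rpl10l (2.92, others 7.61 or higher) and embryo 8 for Rps27l (1.94, others 6.73 to 8.62). Embryo 8 was high for Rpl23 (10.36, others 7.87 to 9.02).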

How the results depend on the processing

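In the comparison of control stages, the members called higher and lower were 15 and 2. They were 33 and 10 with array weights and 6 and 1 with control embryo 4 added. The members called lower were 4 with quantile normalization (4.71%, all genes 18.4%) and 4 with median-of-ratios scaling (4.71%, all genes 19.2%). Leaving out 1 library at a time gave 10 to 24 higher and 2 to 5 lower, where 9.86% to 18.02% of all genes were higher and 7.92% to 17.6% lower, of which the fits without an embryo were chosen after seeing the data. In the K36M stages, where 18 and 1 were called, array weights gave 34 and 7. The members called lower were 0 with a pseudocount of 0.1 (all genes 12.2%) or no filter on low values (all genes 14.0%). They were 2 with median-of-ratios scaling (2.35%, all genes 18.2%). Leaving out 1 library gave 11 to 22 higher and 0 to 3 lower (6.57% to 10.7% and 7.27% to 16.3% of all genes). Median-of-ratios scaling moved the summed share of control FGOs from 1.17% to 1.25% (scaled TPM per 1000000). No member was called in the genotype comparisons or the interaction under any of these alternatives.

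The labels do not say that replicate numbers mark shared animals or days. The correlations of same-numbered libraries were −0.101 to 0.101, and not every library correlated best with its own number. With the replicate block, 8 members were higher (9.41%, all genes 5.71%) and 1 lower (1.18%, all genes 8.59%) in the K36M stages, and 17 of 85 higher (all genes 17.1%) and 2 lower (2.35%, all genes 12.6%) in the control stages. Among the named genes, it ended the calls of Rps6 (adjusted p 0.0575), Rps9 (0.0579) and Rpl7l1 (0.0725) in control libraries, and of Rpl7l1 (0.124), Rpl17 (0.136), Rpl9 (0.145), Rps6 (0.151) and Rpl23a (0.161) in K36M libraries. In FGOs, leaving out 1 library turned the sign of the shift in the paralog difference of Rpl22l1 (−0.086 to 0.40), Rpl39l (−0.29 to 0.22, reversed at 0.05, 0.035, 0.063 and 0.22), Rps4l (−0.18 to 0.40) and Rpl7l1 (−0.31 to 0.056). In embryos that of Rps4l was 0.214 with control embryo 4 added. None of these had passed. The summed share without mitochondrially encoded genes was not run, since the table lists none. Among the values of named genes and paralog pairs, 808 kept their direction and their side of the threshold and 30 lost a call. TPM gives no read counts, so limits set by depth were not computed.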
